A study of Rattus norvegicus with 8 samples.

Results

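The genes described here are 9 chemokine ligands (Ccl2, Ccl7, Cxcl1, Cxcl6, Cxcl10, Cxcl12, Cxcl14, Cxcl16 and Cx3cl1) and Csf1, a growth factor of macrophages. They were taken by symbol from a table of RNA-seq counts in rat astrocytes, and all 10 were found among its 28546 gene rows. The study used 8 libraries of astrocytes from Sprague Dawley rat pups, a co-culture or medium transfer with the melanoma cells 12-273 BM, and 3 groups. In control (n = 2) the melanoma cells carried a scrambled hairpin and no antibody was added. The sh-APP group (n = 3) met melanoma cells with a hairpin that targets the amyloid precursor protein gene, APP, again without antibody. The anti-Abeta group (n = 3) met cells with the scrambled hairpin plus an antibody to amyloid beta. Every group therefore met melanoma cells or their products, and astrocytes kept without melanoma were not analysed here. The hairpin acted in the melanoma cells, not in the astrocytes, and only 1 hairpin to APP is named. The labels give the exposure in differing ways (a co-culture, and 24 h in medium from melanoma cells), and whether replicates were separate cultures is not stated. The p-values below therefore measure the spread between these libraries only.

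Chemokines are small secreted proteins that guide white blood cells along a gradient by binding to receptors on the cell surface. They are named by the spacing of their first cysteines (CC, CXC or CX3C), and the families recruit different cells: CC ligands such as Ccl2 mainly monocytes, and Cxcl1 and its close relatives neutrophils. Reactive astrocytes are a known source of several of them in the inflamed brain, and Csf1 from glia sustains microglia, the macrophages resident there.

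Libraries held 34250464 to 47831595 counts each, and 14445 genes had enough of them to be tested. None of the 10 genes was too low to judge by the rule used here (untested, or under 30 counts in every library). The lowest count of any of them was 79, for Cxcl6 in sh-APP replicate 1, and the highest was 46069, for Ccl2 in control replicate 2. Levels are given as CPM, counts scaled to a common library size with TMM factors (a correction for library composition). No transcript lengths were at hand, so levels are compared between libraries and not between genes. These were bulk libraries, in which fewer cells of a type and less RNA per cell cannot be told apart. All 10 astrocyte markers of the list used (among them Gfap, Aqp4 and Slc1a3) were tested, with a summed level of 15801 to 16165 CPM in control, 17053 to 19545 in sh-APP and 13928 to 14931 in anti-Abeta. Against control, 7 of the 10 were called higher and 1 lower in sh-APP, and 4 higher and 3 lower in anti-Abeta. Of all genes, 53.7% and 29.2% were called. The median log2 fold change of the 10 markers was 0.32 in sh-APP and 0.14 in anti-Abeta, where their sum was lowest. The 11 microglia and macrophage markers in the table summed to 12.6 to 18.4 CPM in control, 13.7 to 17.2 in sh-APP and 16.0 to 26.1 in anti-Abeta, of which Cd68, a lysosomal protein, gave 8.90 to 20.8. Of the 5 of them tested, 3 lay above control without overlap in sh-APP and 3 in anti-Abeta, with a median log2 fold change of 0.77 and 1.15. Of all tested genes, 70.7% and 54.9% did not overlap control, in either direction. Among the 5 tested markers Tyrobp, an adaptor of myeloid receptors, was called in sh-APP (2.84, adjusted p = 0.00882, edgeR), with 131 counts over all libraries. Cx3cr1, a defining microglial receptor, had 0 counts in every library. The sum of the 8 melanocyte and melanoma markers was 4335 to 4417 CPM in control, 2229 to 2432 in sh-APP and 3540 to 3832 in anti-Abeta, nearly all from Gpnmb, which other cells also express. The pigment genes Mlana, Tyr, Tyrp1 and Dct were too low to test, with 2, 21, 29 and 13 counts over all libraries. Neuron markers summed to 308 to 336 CPM in control, 139 to 149 in sh-APP and 206 to 268 in anti-Abeta, and those of the oligodendrocyte lineage to 527 to 529, 525 to 533 and 572 to 587. The neuron sum came mostly from Map2 and Snap25, which were called lower in sh-APP, while 3 of the 6 neuron markers (Rbfox3, Tubb3 and Stmn2) were called higher there. Of all genes, 27.9% were called lower in sh-APP and 25.8% higher. The median log2 fold change of the 6 neuron markers was 0.36 in sh-APP and 0.18 in anti-Abeta. The part of these lists in the results below was not tested.

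In sh-APP against control, 6 of the 10 genes were called at an adjusted p under 0.05 (edgeR's quasi-likelihood test, Benjamini-Hochberg adjustment over all tested genes), against 53.7% of all genes. Ccl2, Cxcl1, Cxcl6 and Cxcl10 were lower, and Cxcl14 and Csf1 were higher. The background was 27.9% called lower and 25.8% called higher. In anti-Abeta against control, 2 of the 10 were called, against 29.2% of all genes (4223). Without control replicate 1 these counts were 1 and 439. Ccl2 was lower and Cx3cl1 higher, where 16.6% of all genes were called lower and 12.7% higher. In sh-APP against anti-Abeta, 7 of the 10 were called, against 26.1% of all genes. Here Ccl2, Cxcl1, Cxcl6 and Cx3cl1 were lower and Ccl7, Cxcl14 and Cxcl16 higher, with a background of 16.0% lower and 10.1% higher. The median log2 fold change of the 10 genes was 0.01, -0.18 and -0.20 in the 3 comparisons, in that order, and that of all tested genes 0.03, 0.03 and -0.01. The first 2 comparisons share the control libraries, and the third shares its libraries with both. The 10 genes were chosen with earlier results of these data known, so their counts beside the background are a description and not a test.

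**Figure D1:**
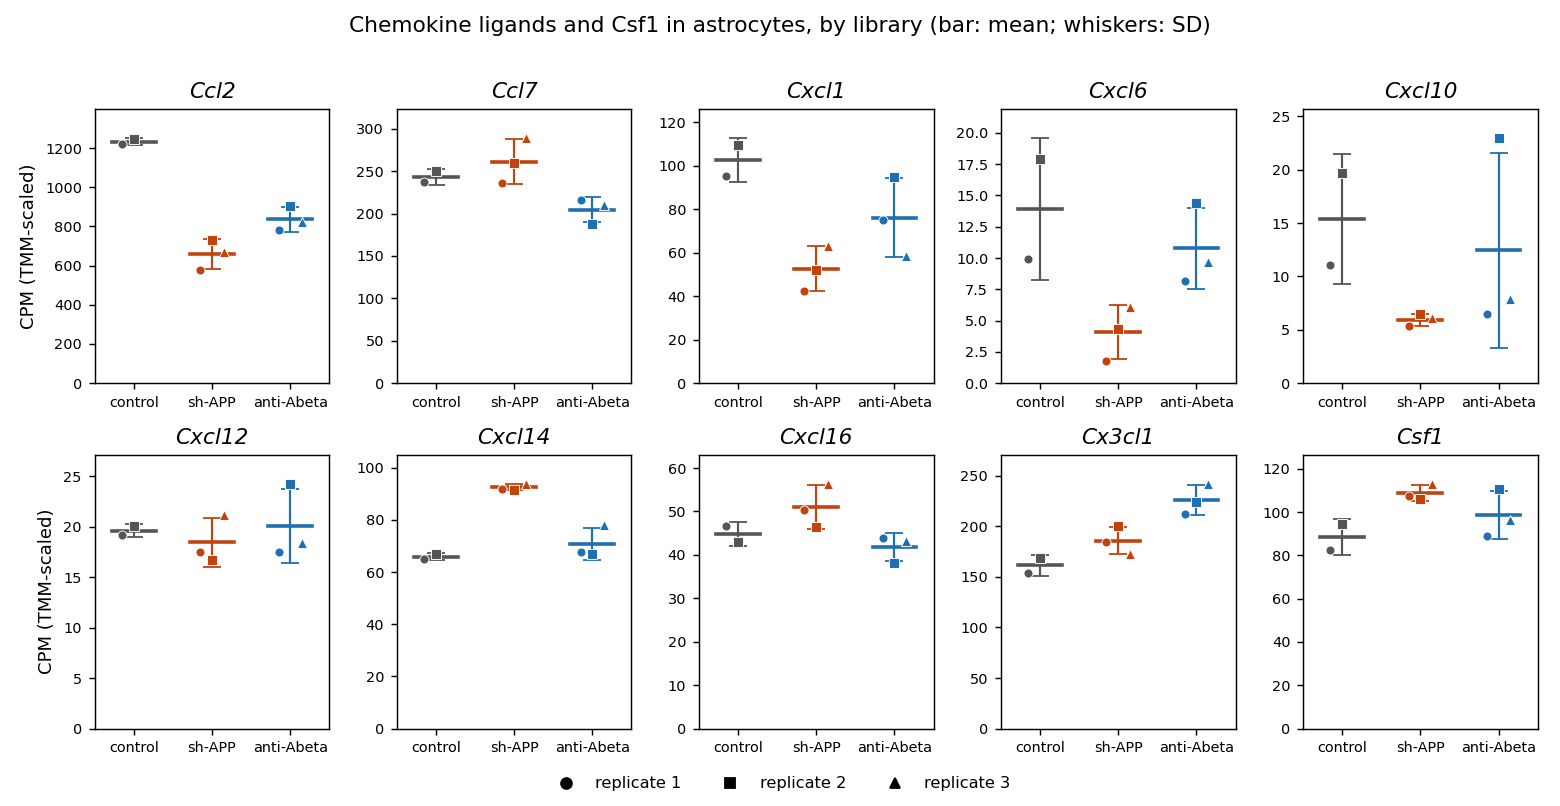
Level of each gene in every library (y axis, CPM after TMM scaling, linear from 0; x axis, group). Symbols are libraries, bars are group means and whiskers are SD (n = 2, 3 and 3). Ccl2 is lowest in sh-APP and highest in control without overlap, while Cx3cl1 is highest in anti-Abeta.

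**Figure D2:**
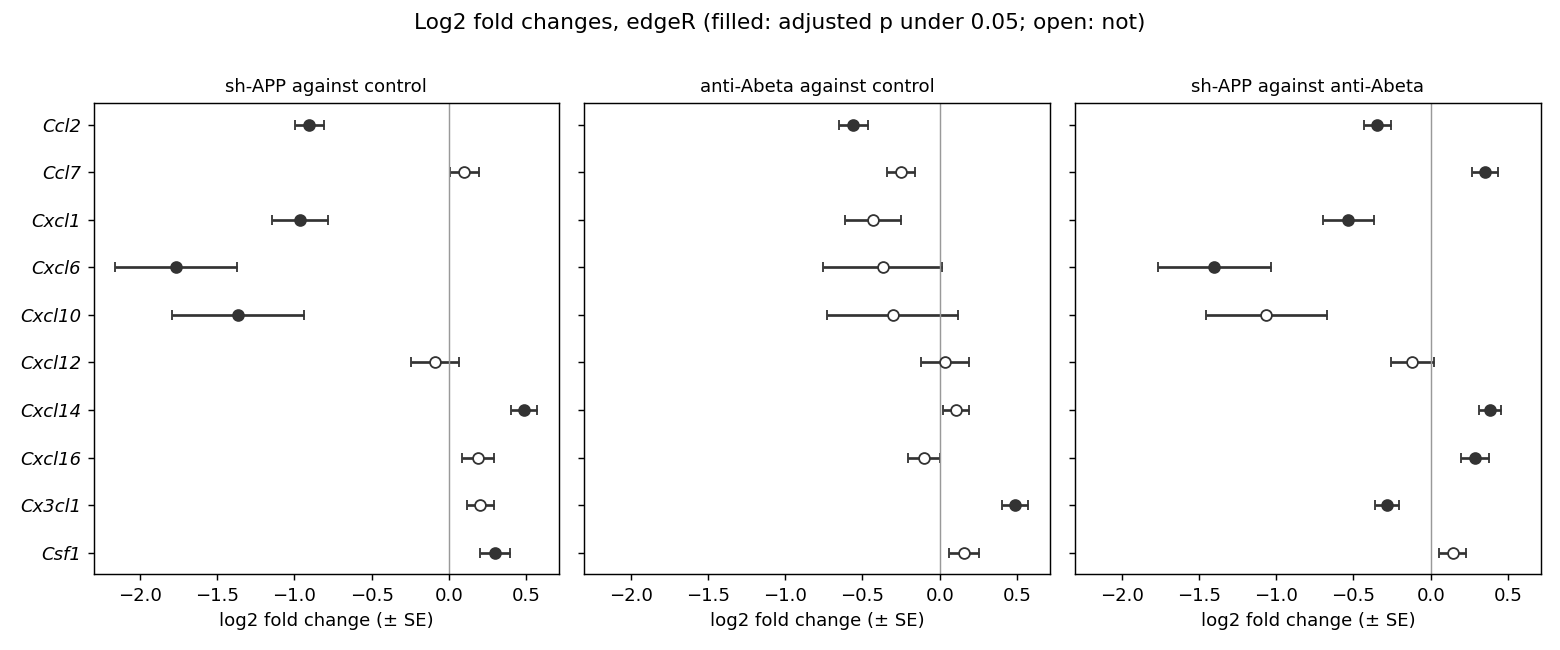
Log2 fold change of each gene with its SE (x axis) in the 3 comparisons (panels), from edgeR. Filled points have an adjusted p under 0.05, and open points do not. In sh-APP against control 4 filled points lie below 0 and 2 above.

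Ccl2 and Ccl7 are CC chemokines that draw monocytes, mainly through the receptor Ccr2. Ccl2 had 1219 and 1244 CPM in control replicates 1 and 2. It had 579, 728 and 669 CPM in sh-APP replicates 1 to 3, and 783, 905 and 821 CPM in anti-Abeta replicates 1 to 3. The 3 groups did not overlap: both control libraries were highest and the 3 sh-APP libraries lowest. Relative to control, the log2 fold change in sh-APP was -0.90 ± 0.10 (SE, adjusted p = 1.38e-05, edgeR), which is 0.535 of the control level. In anti-Abeta it was -0.56 ± 0.10 (adjusted p = 0.00297). Between the arms it was -0.34 ± 0.09 (adjusted p = 0.0128), a call lost without sh-APP replicate 1 (0.0614). Both calls against control held under all 18 alternatives, but in anti-Abeta the adjusted p reached 0.0481 with 1 library left out.

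Ccl7 lies next to Ccl2 on the chromosome, with no other protein-coding gene between them in RefSeq. It stood at 237 and 250 CPM in control, at 236, 260 and 289 in sh-APP, and at 216, 188 and 210 in anti-Abeta. The sh-APP libraries overlapped control, whereas all anti-Abeta libraries lay below both other groups. The sh-APP libraries gave a log2 fold change of 0.10 ± 0.09 (SE) against control, which did not pass (adjusted p = 0.387, edgeR). With library totals and no composition factor it was 0.30 and passed (0.0147). Anti-Abeta gave -0.25 ± 0.09, which did not pass (adjusted p = 0.0591), though it passed under 6 of the 18 alternatives. Between the arms Ccl7 was higher in sh-APP by 0.35 ± 0.08 (adjusted p = 0.00935), a call that held under all 18 alternatives.

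The ratio of Ccl2 to Ccl7 counts within a library does not depend on how libraries are scaled. It was 5.14 and 4.97 in control, 2.45, 2.80 and 2.32 in sh-APP, and 3.63, 4.81 and 3.91 in anti-Abeta. The group means were 5.06 ± 0.121 (SD, n = 2), 2.53 ± 0.252 (n = 3) and 4.11 ± 0.616 (n = 3), with no overlap between groups. The ratio was chosen after the values were seen, so it is given as a description with no test.

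**Figure D3:**
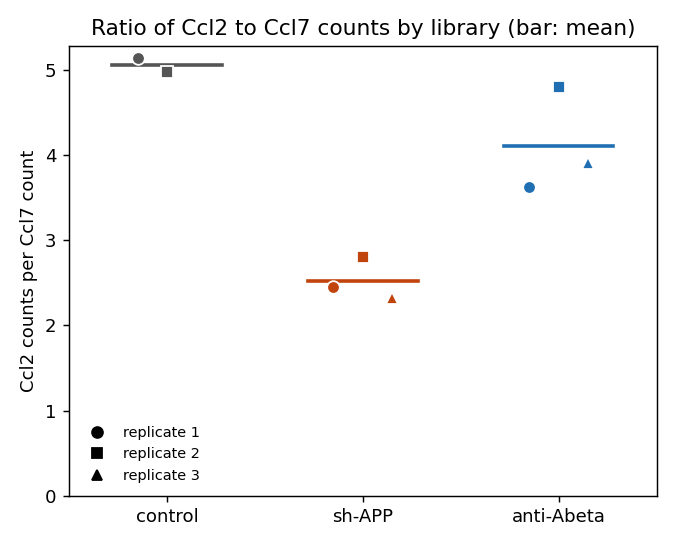
Ccl2 counts per Ccl7 count (y axis, linear from 0) in each library, by group (x axis). Symbols are libraries and bars are group means. The sh-APP libraries sit between 2.32 and 2.80, below anti-Abeta (3.63 to 4.81) and control (4.97 and 5.14).

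Cxcl1 and Cxcl6 are CXC chemokines that draw neutrophils through the receptor Cxcr2, and Cxcl10, which interferons induce, draws T cells through Cxcr3. Transcription of such inflammatory chemokines is known to be driven by the factor NF-kB, and that of Cxcl10 also by interferon-activated factors. The RefSeq promoter windows of Cxcl1, Cxcl6 and Cxcl10, called lower in sh-APP, are shown. Those of Ccl7, not called against control, and of Cxcl14, called higher in sh-APP, are given beside them. Each window runs 5′ to 3′ on the gene's strand, from 250 bases before to 50 after the start, in the build GRCr8, which is later than the build rn6 named for the counts. Such windows were found for 8 of the 10 genes, all but Ccl2 and Csf1. Capitals mark matches, on either strand, to the NF-kB consensus, to the interferon-stimulated response element and to the AP-1 motif (TGANTCA).
Cxcl1, chr14:17479272-17479571, - strand: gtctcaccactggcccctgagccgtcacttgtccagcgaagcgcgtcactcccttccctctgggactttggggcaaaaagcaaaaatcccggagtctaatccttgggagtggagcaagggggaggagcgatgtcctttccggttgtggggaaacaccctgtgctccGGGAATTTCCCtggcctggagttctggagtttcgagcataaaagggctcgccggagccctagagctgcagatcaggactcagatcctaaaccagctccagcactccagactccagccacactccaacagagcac
Cxcl6, chr14:17596368-17596667, - strand: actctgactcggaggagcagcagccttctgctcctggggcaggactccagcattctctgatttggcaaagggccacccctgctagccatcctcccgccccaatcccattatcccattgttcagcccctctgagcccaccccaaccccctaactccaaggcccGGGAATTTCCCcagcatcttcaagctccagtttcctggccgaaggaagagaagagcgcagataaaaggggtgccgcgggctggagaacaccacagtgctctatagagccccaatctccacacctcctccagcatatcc
Cxcl10, chr14:15988816-15989115, + strand: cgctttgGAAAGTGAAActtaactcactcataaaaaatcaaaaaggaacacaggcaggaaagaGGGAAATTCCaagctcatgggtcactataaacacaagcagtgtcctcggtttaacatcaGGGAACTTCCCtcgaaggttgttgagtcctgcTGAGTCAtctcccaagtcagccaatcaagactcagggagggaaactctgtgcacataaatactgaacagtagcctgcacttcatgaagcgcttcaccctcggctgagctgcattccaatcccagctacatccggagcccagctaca
Ccl7, chr10:67513845-67514144, + strand: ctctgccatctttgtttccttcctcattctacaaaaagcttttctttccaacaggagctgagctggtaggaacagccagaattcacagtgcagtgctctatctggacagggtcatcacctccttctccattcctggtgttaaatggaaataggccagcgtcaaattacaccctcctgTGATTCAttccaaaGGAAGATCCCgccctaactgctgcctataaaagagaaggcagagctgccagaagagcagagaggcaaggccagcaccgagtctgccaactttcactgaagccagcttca
Cxcl14, chr17:8322900-8323199, + strand: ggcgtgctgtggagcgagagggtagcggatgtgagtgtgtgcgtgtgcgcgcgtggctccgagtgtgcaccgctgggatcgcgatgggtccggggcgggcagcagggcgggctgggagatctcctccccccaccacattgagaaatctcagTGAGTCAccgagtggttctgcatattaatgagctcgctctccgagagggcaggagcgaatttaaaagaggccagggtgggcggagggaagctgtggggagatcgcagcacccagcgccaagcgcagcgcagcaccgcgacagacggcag
Cxcl1 and Cxcl6 held the same letters, GGGAATTTCC, beginning 84 and 88 bases before the start, and the reverse strand also matched, shifted by 1 base. Cxcl10 had NF-kB matches beginning 187 and 128 bases before the start, the latter also matching in reverse. It also had a response element match at 243 and an AP-1 match at 96. Ccl7 had an NF-kB match on the reverse strand at 59 and an AP-1 match at 73, and Cxcl14 an AP-1 match at 99. The windows of Cxcl12, Cxcl16 and Cx3cl1, which are not shown, held none of these motifs. In all, 4 of the 8 windows held the NF-kB consensus, 1 the response element and 3 the AP-1 motif. Of all 33469 RefSeq windows of that length, 7.51%, 3.92% and 7.33% held them. A match is a string of letters and not a measured binding site. The windows shown were picked by the calls of their genes, and a link between motifs and calls was not tested.

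Cxcl1 had 95.6 and 110 CPM in control, 42.6, 51.8 and 63.3 in sh-APP, and 75.2, 94.7 and 58.5 in anti-Abeta. All sh-APP and all anti-Abeta libraries lay below control, and the arms overlapped, since anti-Abeta replicate 3 was below sh-APP replicate 3. Against control the log2 fold change in sh-APP, -0.96 ± 0.18 (SE, adjusted p = 0.000705, edgeR), passed under all 18 alternatives. For anti-Abeta it was -0.43 ± 0.18 (adjusted p = 0.0937), and it passed with DESeq2 (0.0406) and without anti-Abeta replicate 2 (0.00948). Cxcl1 differed between the arms by -0.53 ± 0.17 (adjusted p = 0.0328), a call that 8 of 18 alternatives lost. These included leaving out any 1 of the libraries except sh-APP replicate 3 and anti-Abeta replicate 3, with adjusted p from 0.0576 to 0.143.

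Cxcl6 had the lowest counts of the 10 genes. Its level was 9.90 and 17.9 CPM in control, 1.80, 4.33 and 6.11 in sh-APP, and 8.16, 14.4 and 9.72 in anti-Abeta. The sh-APP libraries lay below all others, while anti-Abeta overlapped control. Its log2 fold change against control was -1.77 ± 0.39 (SE) for sh-APP (adjusted p = 0.00226, edgeR). That call was lost without control replicate 2 (0.0554) and with no low-count filter (0.0580). For anti-Abeta it was -0.37 ± 0.39 and did not pass (adjusted p = 0.509). Cxcl6 differed between the arms by -1.40 ± 0.36 (adjusted p = 0.0151), lost without sh-APP replicate 2 (0.0632), without anti-Abeta replicate 2 (0.0751) and with no low-count filter (0.147).

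Cxcl10 stood at 11.0 and 19.7 CPM in control, at 5.34, 6.45 and 6.07 in sh-APP, and at 6.48, 22.9 and 7.91 in anti-Abeta. The sh-APP libraries were all below both other groups and lay close together, with an SD of 9.51% of the mean. In anti-Abeta the SD was 73.2% of the mean, because replicate 2 was higher than every other library. Replicate 2 of anti-Abeta was also the highest of its group for Cxcl1, Cxcl6, Cxcl12, Ccl2 and Csf1. Chi-square per degree of freedom was 30.5 and 45.4 for its pairs within the group and 16.9 to 20.2 for all other pairs within groups. For Cxcl10 the sh-APP libraries gave a log2 fold change of -1.37 ± 0.43 (SE) against control (adjusted p = 0.0169, edgeR). The call was lost without control replicate 2 (0.224), with no low-count filter (0.164), with library totals alone (0.0860) and without sh-APP replicate 2 (0.0612). Anti-Abeta gave -0.30 ± 0.42 (adjusted p = 0.631), and -1.10 without anti-Abeta replicate 2 (adjusted p = 0.00479). Between the arms it was -1.06 ± 0.39 (adjusted p = 0.0657), and passed without anti-Abeta replicate 1 (0.0216) or 3 (0.0343) and with the replicate block (0.0328). Without anti-Abeta replicate 2 it was -0.26 (adjusted p = 0.475). Cxcl10 overlaps Art3 in RefSeq, and without strand the reads of both cannot be told apart.

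Cxcl12 and Cxcl14 are CXC chemokines that many tissues make at rest, and Cxcl12 acts through Cxcr4 and the atypical receptor Ackr3. Cxcl12 had 19.1 and 20.0 CPM in control, 17.4, 16.7 and 21.2 in sh-APP, and 17.5, 24.2 and 18.4 in anti-Abeta. The groups overlapped in every comparison. Its log2 fold changes were -0.09 ± 0.16 (SE), 0.03 ± 0.16 and -0.12 ± 0.14 in the 3 comparisons, and none passed (adjusted p = 0.667, 0.902 and 0.577, edgeR). Cxcl14 had 65.0 and 67.0 CPM in control, 92.0, 91.7 and 93.8 in sh-APP, and 67.6, 66.9 and 78.0 in anti-Abeta. The 3 sh-APP libraries were above all others and differed little, with an SD of 1.22% of the mean. Its log2 fold change was 0.49 ± 0.08 in sh-APP against control (adjusted p = 0.000387) and 0.38 ± 0.07 in sh-APP against anti-Abeta (adjusted p = 0.00345), and both passed under all 18 alternatives. Anti-Abeta gave 0.10 ± 0.08 against control (adjusted p = 0.382), and 0.25 with library totals alone (0.0457).

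Cxcl16 and Cx3cl1 are made as membrane proteins that hold cells bearing their receptors and are shed as soluble chemokines by the proteases Adam10 and Adam17. Cxcl16 stood at 46.7 and 42.9 CPM in control, at 50.4, 46.4 and 56.3 in sh-APP, and at 44.0, 38.1 and 43.3 in anti-Abeta. Both arms overlapped control, while the sh-APP libraries all lay above anti-Abeta. In sh-APP the log2 fold change against control was 0.19 ± 0.10 (SE) and did not pass (adjusted p = 0.153, edgeR). It passed with upper-quartile factors (0.27, adjusted p = 0.0431) and with library totals alone (0.39, adjusted p = 0.00711). Anti-Abeta gave -0.10 ± 0.10 (adjusted p = 0.505). Cxcl16 differed between the arms by 0.29 ± 0.09 (adjusted p = 0.0391), a call lost when any of sh-APP replicates 1 and 3 or the 3 anti-Abeta libraries was left out (0.0504 to 0.167). Cxcl16 overlaps Zmynd15 in RefSeq.

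Cx3cl1, or fractalkine, binds the microglial receptor Cx3cr1. It had 154 and 168 CPM in control, 185, 200 and 173 in sh-APP, and 212, 224 and 242 in anti-Abeta. The groups did not overlap, with control lowest and anti-Abeta highest, an order that none of the other 9 genes had. The log2 fold change was 0.49 ± 0.09 (SE) in anti-Abeta against control (adjusted p = 0.00338, edgeR), and the call was lost without control replicate 1 (0.41, adjusted p = 0.0654). In sh-APP against control it was 0.20 ± 0.09 and did not pass (adjusted p = 0.0638). It passed there with upper-quartile factors (0.29, adjusted p = 0.0135), library totals alone (0.41, 0.00137), only the groups compared (0.0437) and without sh-APP replicate 3 (0.0426). Between the arms Cx3cl1 was lower in sh-APP by the direct test, at -0.28 ± 0.08 (adjusted p = 0.0181), a call lost without anti-Abeta replicate 3 (0.0620) or either of sh-APP replicates 1 (0.0610) and 3 (0.0823).

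Csf1 is the growth factor that keeps microglia and other macrophages alive through the receptor Csf1r. Its level was 82.5 and 94.3 CPM in control, 108, 106 and 113 in sh-APP, and 89.0, 111 and 96.2 in anti-Abeta. The sh-APP libraries were all above control, while anti-Abeta overlapped both. It had a log2 fold change of 0.30 ± 0.10 (SE) in sh-APP against control (adjusted p = 0.0209, edgeR), lost without control replicate 1 (0.209) or sh-APP replicate 3 (0.0644). Anti-Abeta gave 0.16 ± 0.10 (adjusted p = 0.253), and 0.30 with library totals alone (0.0249). Between the arms it was 0.14 ± 0.09 (adjusted p = 0.257), and 0.25 without anti-Abeta replicate 2 (0.0453). Csf1 overlaps LOC120100914 in RefSeq.

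Among the 10 genes, Ccl2, Cxcl1 and Cxcl14 in sh-APP against control, Ccl2 in anti-Abeta against control, and Ccl7 and Cxcl14 between the arms kept their calls under each of the 18 alternatives. The libraries of sh-APP and control did not overlap for 7 of the 10 genes, against 70.7% of all tested genes. For anti-Abeta and control this was 4 of 10 against 54.9%, and for the arms 7 of 10 against 41.3%.

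**Figure D4:**
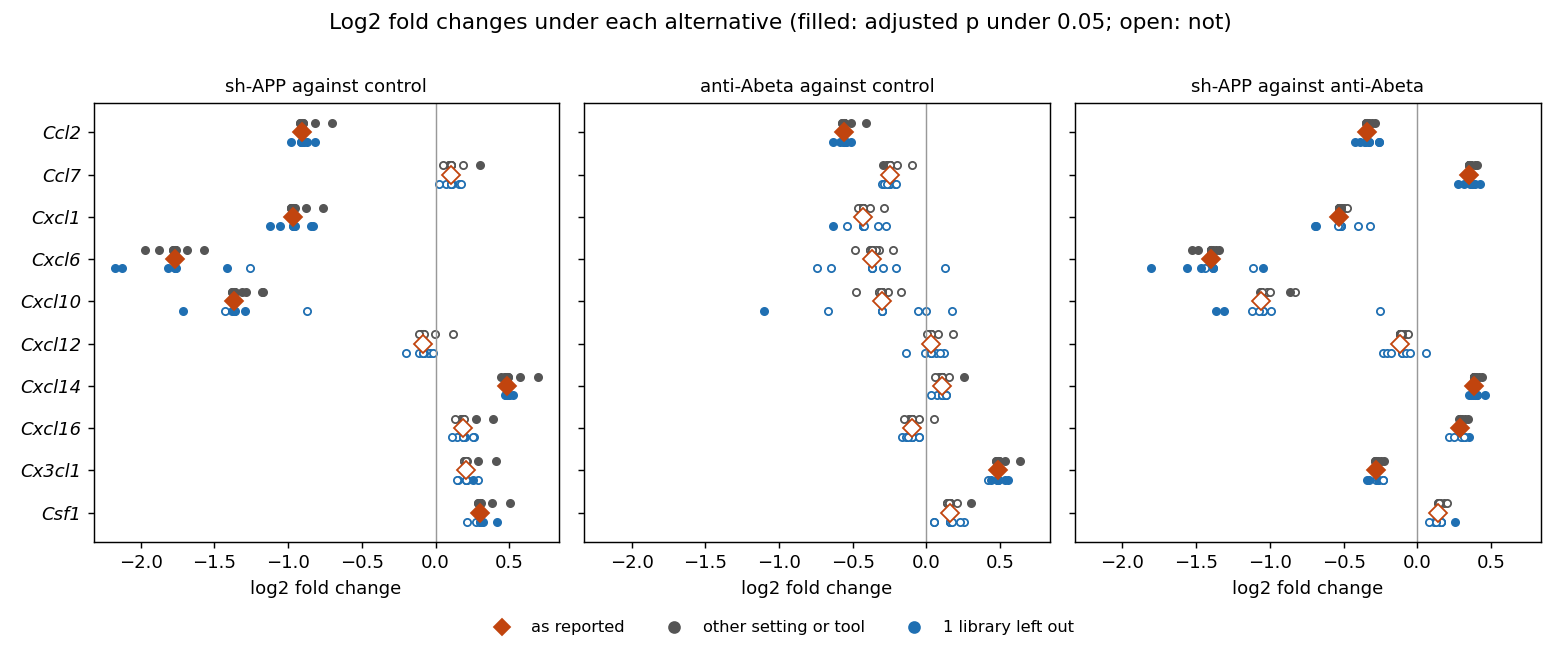
Log2 fold change of each gene (x axis) in the 3 comparisons (panels) as reported (diamonds), under another setting or tool (grey) and with 1 library left out (blue). Filled symbols have an adjusted p under 0.05. Ccl2 stays below 0 in all panels, and the points of Cxcl6 and Cxcl10 spread most.

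Of the other 27 chemokine ligands looked up, 15 were too low to test, 3 of them with no count in any library. Of the 12 tested, 3 were called in sh-APP against control, all higher, and 1 in anti-Abeta against control, lower, in edgeR's test, beside 53.7% and 29.2% of all genes. Those higher were Ccl12, Ccl27 and Pf4, all at group means under 2 CPM. Ccl12 had 2 and 0 counts in control and 10, 14 and 34 in sh-APP (adjusted p = 0.0105), and lost its call when control replicate 2 was left out (0.0915). Those of Ccl27 and Pf4 (adjusted p = 0.0449 and 0.0458) were each lost under 8 alternatives, over a range of 0.0171 to 0.210 and of 0.0302 to 0.186. Both control libraries were among those whose removal lost them, with 0.0776 and 0.210 for Ccl27. The 1 lower in anti-Abeta was the interferon-induced Cxcl9, with 12 and 9 counts in control and 0, 2 and 2 in anti-Abeta, at an adjusted p of 0.0273. That call was lost without control replicate 1 (0.168) or 2 (0.0757) or anti-Abeta replicate 1 (0.0621) or 3 (0.0603). In sh-APP, Cxcl9 had 15, 10 and 20 counts and was not called against control. Between the arms it was higher in sh-APP by 3.30 ± 0.85 (SE, adjusted p = 0.0143, edgeR). That call held under all 15 alternatives that gave it an adjusted p (up to 0.0496). It was the only 1 of the 12 called between the arms, beside 26.1% of all genes.

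The receptors through which these ligands act were described from the same libraries. Of the 22 chemokine receptors in the table, 11 had no count in any library, among them Ccr2 and Cx3cr1, the receptors for Ccl2 and Cx3cl1. A count of 0 allows up to 3 counts, or 0.0611 to 0.0856 CPM depending on the library. Of 6 receptors tested, 1 was called in sh-APP, lower, and 0 in anti-Abeta, where edgeR gave an unadjusted p under 0.05 for 0. Of all genes, 53.7% and 29.2% were called. The 1 receptor called was Cxcr4, the receptor of Cxcl12, which had 23.9 and 23.7 CPM in control and 17.5, 19.7 and 15.2 in sh-APP. Its log2 fold change was -0.45 ± 0.14 (SE, adjusted p = 0.0148, edgeR), lost with library totals alone (0.162), without sh-APP replicate 3 (0.0569) and without control replicate 1 (0.0748) or 2 (0.0683). Ackr3, the other receptor of Cxcl12, had -0.09 ± 0.20 (adjusted p = 0.732). Csf1r had 7 and 0 counts in control, 17, 31 and 11 in sh-APP, and 17, 8 and 20 in anti-Abeta, and was not called. Il34, the other ligand of Csf1r, was called in sh-APP, from 6.03 and 8.91 CPM in control to 13.3, 12.8 and 12.0. Its log2 fold change was 0.77 ± 0.25 (adjusted p = 0.0221), and 0.52 without control replicate 1 (adjusted p = 0.222). Of the 3 genes of the colony-stimulating factor axis tested, 1 was called in sh-APP, higher, and 0 in anti-Abeta, where edgeR gave an unadjusted p under 0.05 for 0. The background was 53.7% of all genes called in sh-APP (25.8% higher) and 29.2% in anti-Abeta.

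The list of shedding, trimming and mRNA turnover held 8 genes, all tested, of which 2 were higher and 4 lower in sh-APP against control, and 1 higher and 2 lower in anti-Abeta, where 53.7% and 29.2% of all genes were called. Adam10 and Adam17, the proteases that shed Cx3cl1 and Cxcl16, were both lower in sh-APP. Adam10 went from 123 and 131 CPM in control to 76.9, 77.9 and 81.7 in sh-APP, a log2 fold change of -0.68 ± 0.11 (SE, adjusted p = 0.000233, edgeR). Adam17 went from 116 and 110 CPM to 81.8, 81.0 and 87.8, a change of -0.43 ± 0.08 (adjusted p = 0.000599). In anti-Abeta, where Cx3cl1 was highest, Adam10 had -0.35 ± 0.11 (adjusted p = 0.0342), a call lost under 6 of 18 alternatives, among them without either control library or anti-Abeta replicate 1 or 3 (up to 0.182), and Adam17 had -0.16 ± 0.08 (adjusted p = 0.155). Zfp36, which marks inflammatory mRNAs for decay, was higher in sh-APP by 0.61 ± 0.09 (adjusted p = 0.000121), from 41.0 and 40.9 CPM to 62.2, 58.6 and 66.3. Its call in anti-Abeta, also higher, was lost under 10 of 18 alternatives, among them the replicate block (adjusted p = 0.112, edgeR). Its relative Zfp36l1 had -0.79 ± 0.14 in sh-APP (adjusted p = 0.000521), Elavl1, which binds and stabilises mRNAs, -0.46 ± 0.09 (adjusted p = 0.00077), and the ribonuclease Zc3h12a 0.48 ± 0.16 (adjusted p = 0.0222). The call of Zfp36l1 in anti-Abeta, lower, was lost under 3 of 18 alternatives, among them without anti-Abeta replicate 3 (adjusted p = 0.0517, edgeR). The call of Zc3h12a was lost without either control library and without sh-APP replicate 2 or 3 (up to 0.0999).

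The list of upstream receptors and transcription factors held 24 genes, of which 11 were higher and 5 lower in sh-APP against control, and 5 higher and 3 lower in anti-Abeta. Of all genes, 25.8% were higher and 27.9% lower in sh-APP, and 12.7% higher and 16.6% lower in anti-Abeta. Its median log2 fold change was 0.35 and 0.17, beside 0.03 and 0.03 for all tested genes. The innate receptors Tlr4 and Tlr3, which sense lipopolysaccharide and double-stranded RNA, were lower in sh-APP. Tlr4 went from 11.1 and 12.4 CPM in control to 2.97, 3.92 and 4.67, a log2 fold change of -1.61 ± 0.22 (SE, adjusted p = 7.98e-05, edgeR). Tlr3 went from 7.62 and 7.88 CPM to 3.22, 4.44 and 3.48, a change of -1.06 ± 0.20 (adjusted p = 0.000629). Relb and Nfkb2, which act together as an NF-kB dimer, were higher in sh-APP by 0.68 ± 0.09 (adjusted p = 4.74e-05) and 0.50 ± 0.09 (adjusted p = 0.00039). The tumour necrosis factor receptor gene Tnfrsf1a was higher by 0.54 ± 0.08 (adjusted p = 0.000133), and Stat2, of the interferon response, by 0.65 ± 0.10 (adjusted p = 0.000186). Of these 6 genes, Relb (0.54, adjusted p = 0.00263), Nfkb2 (0.31, 0.0193) and Tlr3 (-0.71, 0.0189) were also called in anti-Abeta. The anti-Abeta calls of Nfkb2 and Tlr3 were lost without control replicate 1 (0.200 and 0.104) and without anti-Abeta replicate 3 (0.0622 and 0.0633), that of Nfkb2 also with the replicate block (0.0530), and that of Tlr3 also without control replicate 2 (0.0891).

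The genes whose level followed that of Ccl2 most closely over the 8 libraries were Wapl, Gyg1, Dbi, Mtmr2 and Cept1. Their Pearson correlations of log2 CPM with Ccl2 were 0.999, 0.996, 0.995, 0.995 and 0.995, the highest among 10093 other genes with a mean of at least 5 CPM. The 8 points share the 3 groups and the same scaling, so the values describe likeness only.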

How the data were processed

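RNA-seq was deposited as raw counts per gene symbol for 8 libraries. The authors made these counts from their reads, and the build rn6 is listed with HTSeq 0.11.1, STAR 2.6.0a, DESeq2 1.24.0, SAMtools 1.9, Trimmomatic 0.36 and FastQC 0.11.7, per the submitters' processing notes, with no settings. The sources used here do not state strandedness.

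All libraries entered 1 edgeR 4.0.16 fit (R 4.3.3) whose single factor was the group, leaving 5 residual degrees of freedom. Genes passed filterByExpr (minimum count 10, minimum total 15), totals were scaled by TMM factors, and contrasts were tested with the robust quasi-likelihood test and Benjamini-Hochberg adjustment over 14445 genes at 0.05. Each SE was derived from the log2 fold change and its F statistic. The fit was tested on simulated data. The 18 alternatives were other scalings, filters and tools (DESeq2 1.42.0, limma-voom 3.58.1), the non-robust fit, only the groups compared, the replicate block, and each library left out. Named genes are the 10 listed, up to 6 called genes per pathway list with the smallest p, and the 5 most like Ccl2. Cases outside this rule (Ackr3, Csf1r) were named after their values were seen. Members and lists were chosen with earlier results of these data known. Promoter windows, neighbours and overlaps come from RefSeq tables of GRCr8. Genes with few counts, such as Ccl12, Cxcl9, Pf4 and Csf1r, also carry large counting error.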

Additional observations from a re-analysis of the deposited data

How the results depend on the processing

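Of 540 log2 fold changes of the 10 genes under alternatives, 482 kept direction and side of the threshold, 29 lost the call, 22 gained it and 7 turned direction, none of the 7 called in the fit as reported. With library totals alone Cxcl12 in sh-APP against control was at 0.12 and Cxcl16 in anti-Abeta against control at 0.052. With 1 library left out, log2 fold changes in anti-Abeta against control ran from -0.74 (without control replicate 1) to 0.12 (without control replicate 2) for Cxcl6, from -1.10 (without anti-Abeta replicate 2) to 0.18 (without control replicate 2) for Cxcl10, and from -0.14 (without anti-Abeta replicate 2) to 0.12 (without anti-Abeta replicate 1) for Cxcl12, which was at -0.01 without control replicate 1. Between the arms Cxcl12 ran from -0.23 (without sh-APP replicate 3) to 0.062 (without anti-Abeta replicate 2).

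The number of the 10 genes called in sh-APP against control ran from 4 to 6 with 1 library left out. It was 8 with upper-quartile factors (4 higher, 4 lower) and 8 with library totals alone (5 higher, 3 lower), against 2 higher and 4 lower as reported. In anti-Abeta against control it was 4 with library totals alone and 4 with DESeq2, and 1 (without control replicate 1) to 4 (without anti-Abeta replicate 2) with 1 left out. Between the arms it ran from 3 (without sh-APP replicate 1) to 6. Over all genes, the count called with 1 library left out ran from 5942 to 7954 in sh-APP against control, from 439 to 4775 in anti-Abeta against control, and from 2233 to 3582 between the arms. The low end was without control replicate 1 for the first 2. Library totals alone moved the median log2 fold change of all genes to 0.23 and 0.18 against control, and the share of calls that were higher from 48.0% to 62.6% in sh-APP, from 43.4% to 71.7% in anti-Abeta and from 38.5% to 49.5% between the arms. With upper-quartile factors the share was 54.5% in sh-APP and 53.9% in anti-Abeta, and the median 0.11 in sh-APP. The cause was not tested.

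Whether the replicate numbers pair the libraries was not settled. Deviations of same-numbered sh-APP and anti-Abeta libraries correlated at 0.11, 0.10 and -0.01. Those of differently numbered ones ran from -0.11 to 0.02. Each deviation was taken from the mean of its own group, which ties these correlations to each other, so they cannot decide it. With the replicate block 6, 3 and 8 of the 10 genes were called in the 3 comparisons, and 7328, 3480 and 3675 of all genes.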
